A study of Mus musculus with 12 samples.

Results

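The genes described here are the canonical Notch receptors Notch1, Notch2, Notch3 and Notch4 and the ligands Dll1, Dll4, Jag1 and Jag2, in liver sinusoidal endothelial cells whose Notch pathway was switched on from a transgene. They are 8 of the 25428 probe sets on the arrays, were taken by their gene symbols, and each had 1 probe set. The NICD-OE-HEC group holds 6 samples from mice with 1 copy of Clec4g-Cre and a Rosa26-N1ICD-IRES-GFP allele, in which Cre made in hepatic endothelium turns on the Notch1 intracellular domain (N1ICD) and GFP. The Control group holds 6 samples of the same cells. Neither the full genotype of the Control mice nor the age of the animals is stated in the sources used. Every sample pooled livers of 3 mice, was taken from a Nycodenz gradient of 19.3% and was selected with magnetic beads against CD146. Each was hybridised to its own Affymetrix array, and expression is given as log2 RMA values, on which a step of 1 doubles the signal. The labels call the samples of a group biological replicates.

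Notch signalling passes between touching cells. A ligand of the Delta-like or Jagged family on one cell pulls on a Notch receptor on its neighbour, the receptor is cut by an ADAM protease and then by gamma-secretase, and the freed intracellular domain moves to the nucleus, where it joins RBPJ and Mastermind proteins on DNA. In blood vessels Notch1 and Notch4 are the main endothelial receptors, Dll4 and Jag1 the main endothelial ligands, and Notch3 is best known from the smooth muscle cells and pericytes around the vessel. Arterial identity, sprouting and the branching of bile ducts next to Jag1-bearing portal cells all depend on this pathway. A cell that makes N1ICD from a transgene needs neither ligand nor receptor cleavage for the signal, so the question for these genes is how the endogenous receptors and ligands stand in such cells.

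Transcripts of sinusoidal endothelium were present on every array. The genes of a 10-gene sinusoidal list, among them Stab2, Lyve1 and Clec4g, were above the array median of 3.67 on each. The list's mean levels were 9.88 to 10.12 in NICD-OE-HEC and 10.51 to 10.80 in Control. This does not measure purity, because means of other cell types' lists also exceeded that median. Those of 8 Kupffer cell genes were 7.97 to 9.48 in NICD-OE-HEC and 7.87 to 9.17 in Control. For 8 hepatocyte genes they were 6.99 to 8.56 in NICD-OE-HEC and 6.48 to 7.93 in Control. Of the 10 sinusoidal genes 9 were lower in NICD-OE-HEC, including Clec4g (-0.81), whose regulatory sequence drives the Cre, and 1 was higher. Mcam, which encodes CD146, was higher by 0.92. Along the second principal component (16.4% of the variance) NICD-OE-HEC 4 and Control 2 stood apart from the other arrays. Results are therefore also given without these arrays, which leaves 5 in each group.

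In the NICD-OE-HEC cells 4 of the 8 genes rose, namely the ligands Jag1 and Dll4 and the receptors Notch4 and Notch3. None of the 8 fell by limma's test, where Dll1 alone was lower at an unadjusted p under 0.05 and Notch2, Notch3, Notch4, Dll4, Jag1 and Jag2, 6 in all, were higher by that measure. Over all probe sets 10.5% were called at an adjusted p under 0.05, with 4.89% higher and 5.59% lower. The differences of 7 of the 8 genes were positive and their median was 0.52, against -0.01 over all probe sets. For Notch4, Dll4 and Jag1 every NICD-OE-HEC array lay above every Control array, a separation found for 2.98% of all probe sets. When calls were also required to reach a log2 difference of 1, Jag1 alone remained, beside 1.30% of all probe sets that were higher by that rule. Without NICD-OE-HEC 4 and Control 2 the count was again 4 higher and 0 lower.

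The promoters of the 3 genes whose groups did not overlap, and of Notch1, whose coding sequence the transgene takes its domain from, are shown as the 250 bases before the RefSeq start, 5′ to 3′ on the gene's strand (build GRCm38.p6). All 8 genes had a promoter in the RefSeq table, Dll1 with 2 starts. Capitals mark GGGAA, the core of the sequence RBPJ binds, on either strand (TTCCC on the other).
Jag1, chr2:137116521-137116770, minus strand: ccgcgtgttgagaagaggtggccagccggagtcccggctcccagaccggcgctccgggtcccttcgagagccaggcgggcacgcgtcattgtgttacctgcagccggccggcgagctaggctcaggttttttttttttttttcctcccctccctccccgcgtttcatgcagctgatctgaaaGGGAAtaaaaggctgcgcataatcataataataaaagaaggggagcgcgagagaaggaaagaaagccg
Dll4, chr2:119325534-119325783, plus strand: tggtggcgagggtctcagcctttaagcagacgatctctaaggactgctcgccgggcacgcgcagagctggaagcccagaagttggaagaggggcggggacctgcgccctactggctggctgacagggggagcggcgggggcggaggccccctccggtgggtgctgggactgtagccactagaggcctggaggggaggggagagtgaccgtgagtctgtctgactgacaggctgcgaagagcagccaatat
Notch4, chr17:34564045-34564294, plus strand: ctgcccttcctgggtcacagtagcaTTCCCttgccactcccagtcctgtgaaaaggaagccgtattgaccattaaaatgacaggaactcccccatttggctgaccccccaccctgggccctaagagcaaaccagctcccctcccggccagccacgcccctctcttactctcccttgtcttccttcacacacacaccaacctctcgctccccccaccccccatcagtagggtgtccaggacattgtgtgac
Notch1, chr2:26503823-26504072, minus strand: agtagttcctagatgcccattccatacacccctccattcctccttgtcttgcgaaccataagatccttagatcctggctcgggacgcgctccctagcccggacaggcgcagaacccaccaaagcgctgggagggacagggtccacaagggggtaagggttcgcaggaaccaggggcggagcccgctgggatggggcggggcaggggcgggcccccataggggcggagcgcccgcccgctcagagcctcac
The Jag1 window held 1 match, which began 68 bases before the start, and the Notch4 window held 1 on the other strand, whose first printed base lay 225 bases before the start. The Dll4 and Notch1 windows held 0. Among the windows not printed, Notch2 and 1 of the 2 Dll1 starts each held 1 match, and Notch3, Jag2 and the other Dll1 start held 0. Of 32851 promoter windows of this length 56.2% held GGGAA on at least 1 strand. The longer form TGGGAA, which contains GGGAA and stood in 21.6% of windows, was absent from all 8 genes' windows, as was CACGTG, an E-box of the kind bound by HEY repressors, found in 6.02%. Of 6 target genes listed, 3 had a promoter in the table, and Hes1, Hey1 and Heyl had none there. Hes5 held 2 copies of TGGGAA and Hey2 held 1, though neither gene was called, and Nrarp held 1 CACGTG. These matches describe letters in short windows and do not show whether a factor binds.

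Notch1 comes first because the transgene carries part of it. Its log2 value ran from 8.46 over a median of 8.88 to 9.15 in NICD-OE-HEC and from 8.20 over 8.75 to 8.96 in Control. The groups overlapped over most of their range, and the lowest array of each was the one that stood apart, NICD-OE-HEC 4 and Control 2. Notch1 averaged 8.87 ± 0.24 in NICD-OE-HEC and 8.68 ± 0.26 in Control (SD, n = 6 each), a difference of 0.19 (SE 0.14, limma adjusted p = 0.486) with a 95% interval of -0.10 to 0.48. Without those arrays the difference was 0.18 (adjusted p = 0.318). Where the probes of this probe set lie relative to the intracellular domain is not stated in the sources used. The value therefore neither measures the transgene nor checks the group labels.

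Notch4, a receptor largely confined to endothelium, was higher in every NICD-OE-HEC array. Its values ran from 7.76 over a median of 7.99 to 8.50 in NICD-OE-HEC and from 7.35 over 7.44 to 7.67 in Control. The mean was 8.03 ± 0.25 in NICD-OE-HEC and 7.48 ± 0.12 in Control (SD, n = 6 each), 1.47-fold higher on the linear scale (log2 difference 0.55, SE 0.11, limma adjusted p = 0.00465). NICD-OE-HEC 5 was the highest array and NICD-OE-HEC 6 the lowest, and the difference stayed between 0.46 and 0.61 with any 1 array left out. Two-sided exact permutation of the 12 arrays gave p = 0.00216, the smallest that this design allows.

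Notch3, the receptor of vascular smooth muscle and pericytes, also rose, but less securely. The arrays ranged from 4.06 over a median of 4.37 to 4.98 in NICD-OE-HEC and from 3.50 over 3.94 to 4.26 in Control. NICD-OE-HEC 5 and 2 were the high arrays, and NICD-OE-HEC 3 lay within the Control range. The mean was 4.49 ± 0.36 in NICD-OE-HEC and 3.90 ± 0.29 in Control (SD, n = 6 each), a log2 difference of 0.59 (SE 0.17, limma adjusted p = 0.0329; exact permutation p = 0.00866). The call was lost when NICD-OE-HEC 2 or 5 or Control 1, 5 or 6 was left out, where the adjusted p reached 0.0769 at most, and the difference ranged from 0.50 to 0.68 over all single arrays left out. Control values of Notch3 straddled the array median of 3.67. A signal below that median is treated here as not told from background, a working cut, since background was not measured. The size of the difference is therefore not exact.

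Genes of mural cells, the contractile and pericyte cells in which Notch3 is usually found, moved on the same arrays. Of a list of 8, 5 rose and 0 fell by limma's test (5 and 0 at an unadjusted p under 0.05). The list's mean level ran from 6.38 to 6.85 in NICD-OE-HEC and from 5.36 to 5.74 in Control. The potassium channel genes Abcc9 (3.26) and Kcnj8 (2.99) had the largest differences of the list, followed by Rgs5 (1.09). The contractile genes Acta2 (0.78) and Myh11 (0.50) rose too, whereas Cspg4, Cnn1 and Des differed by 0.16, 0.11 and 0.23 without a call. No gene of the list was below the array median on all arrays. In bulk cell preparations such as these, more cells of a type and more RNA per cell cannot be told apart. The part of mural cells in the Notch3 difference was not tested.

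Notch2, the receptor that shapes bile ducts and marginal zone B cells, was higher on average without a call. Log2 values went from 5.34 over a median of 5.83 to 6.36 in NICD-OE-HEC and from 4.93 over 5.29 to 6.02 in Control. NICD-OE-HEC 1 and 3 were the highest arrays, and Control 1 lay above the other 4 NICD-OE-HEC arrays. The mean was 5.88 ± 0.37 in NICD-OE-HEC and 5.40 ± 0.39 in Control (SD, n = 6 each), a log2 difference of 0.49 (SE 0.19, limma adjusted p = 0.144; exact permutation p = 0.0606). Control 1 decided the call, because without it the difference was 0.61 with an adjusted p of 0.0436. Of 8 Kupffer cell genes 0 were called by limma (1 higher at an unadjusted p under 0.05), with list means of 7.97 to 9.48 in NICD-OE-HEC and 7.87 to 9.17 in Control. The median difference of these Kupffer genes was nevertheless 0.35, and the largest was 0.84 for Adgre1 (limma adjusted p = 0.0616). Of 7 lymphocyte genes 0 were called (0 at an unadjusted p under 0.05), with list means of 3.20 to 4.24 in NICD-OE-HEC and 3.52 to 3.83 in Control. The part of Kupffer cells and lymphocytes in the Notch2 difference was not tested.

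**Figure D1:**
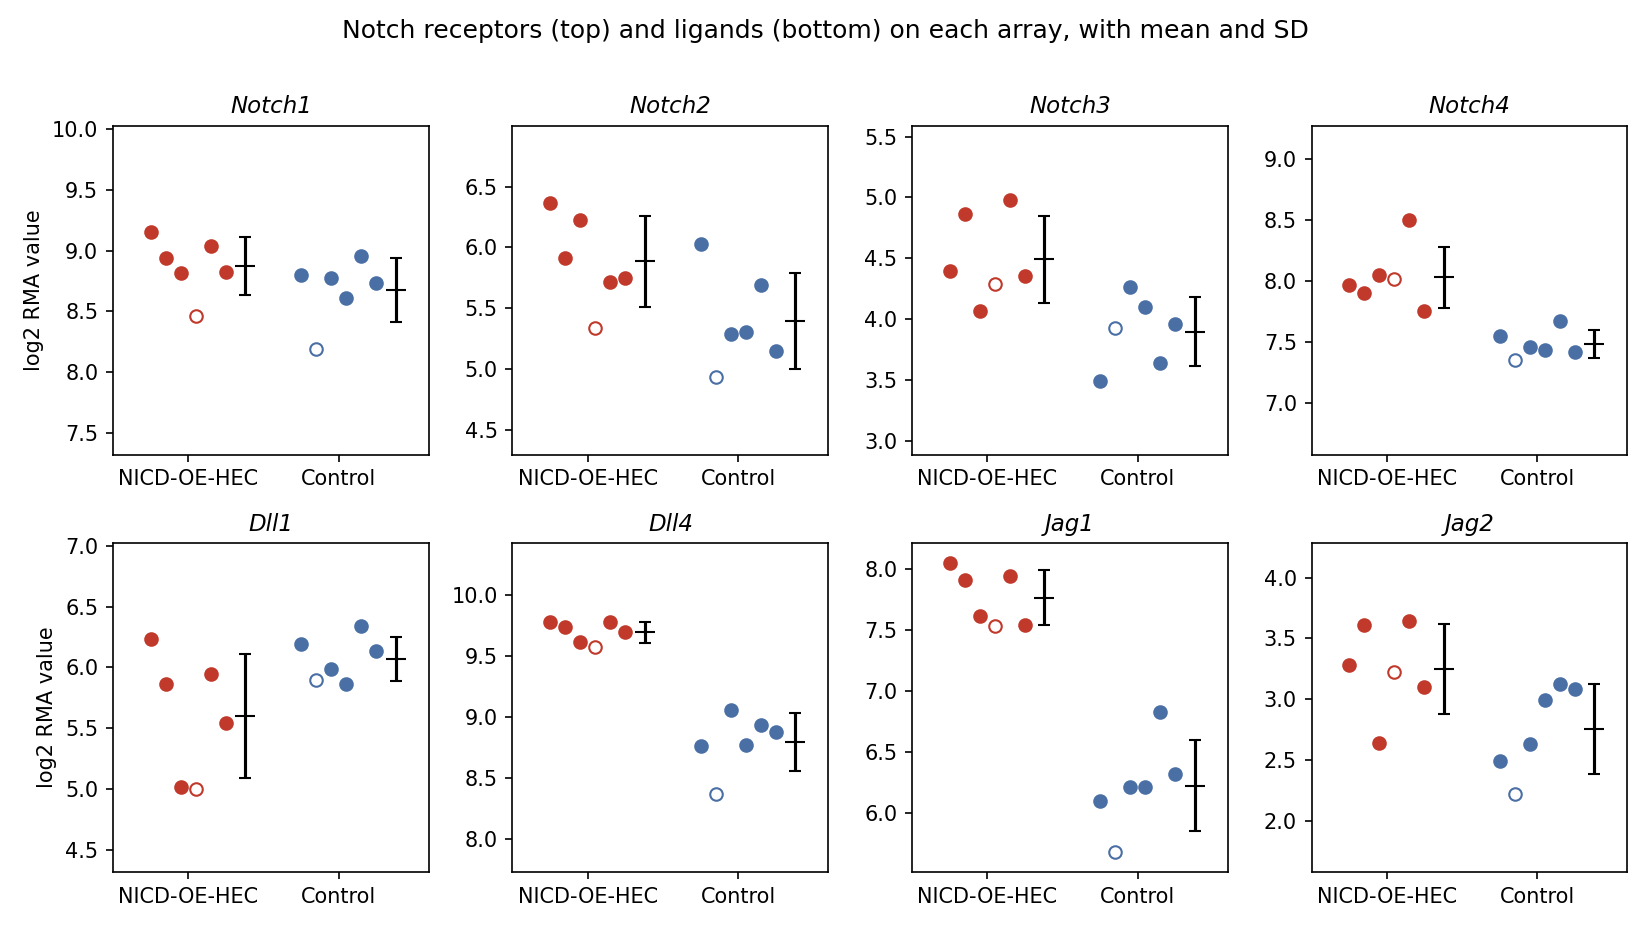
Log2 RMA values (vertical axes, each spanning 2.7 log2 units) of the receptors in the top row and the ligands in the bottom row, with 1 point for each of the 6 NICD-OE-HEC and 6 Control arrays in order of replicate number. Open points are NICD-OE-HEC 4 and Control 2, and the black marks give mean and SD. The groups do not overlap for Notch4, Dll4 and Jag1.

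Among the ligands, Jag1 showed the largest difference of the 8 genes. Jag1 is the Jagged ligand of arterial and portal endothelium, and its loss impairs bile duct formation. Its values ran from 7.54 over a median of 7.76 to 8.05 in NICD-OE-HEC and from 5.68 over 6.21 to 6.83 in Control. Even the highest Control array, Control 5, lay below the lowest NICD-OE-HEC array. The mean was 7.77 ± 0.23 in NICD-OE-HEC and 6.22 ± 0.37 in Control (SD, n = 6 each), 2.92-fold higher (log2 difference 1.54, SE 0.16, limma adjusted p = 1.02e-05). The size of this difference stood at percentile 99.2 among all probe sets. It ranged from 1.44 to 1.67 with any 1 array left out.

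Jag1 is also made by bile duct and mural cells, and genes of cholangiocytes were higher on these arrays. Of 6 cholangiocyte genes measured 5 rose and 0 fell (6 and 0 at an unadjusted p under 0.05), among them Sox9 (1.12), itself a target of Notch in bile ducts, Epcam (0.97) and Krt19 (0.84). The list's mean level ran from 4.24 to 4.72 in NICD-OE-HEC and from 3.66 to 3.98 in Control. Cftr, the chloride channel of bile duct cells, was below the array median on all 12 arrays, and Krt19 averaged 4.39 ± 0.27 in NICD-OE-HEC and 3.55 ± 0.20 in Control (SD, n = 6 each). That Control mean lay below the array median, so the size of the Krt19 difference is not exact. The part of these cells in the Jag1 difference was not tested.

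Dll4, the Delta ligand of arteries and of sprouting tip cells, rose, and its spread within NICD-OE-HEC was the narrowest of the 8 genes. The arrays gave 9.57 to 9.78 with a median of 9.72 in NICD-OE-HEC, and 8.37 to 9.06 with a median of 8.82 in Control. All NICD-OE-HEC arrays lay close together and above every Control array. The mean was 9.70 ± 0.09 in NICD-OE-HEC and 8.79 ± 0.24 in Control (SD, n = 6 each), 1.87-fold higher (log2 difference 0.90, SE 0.11, limma adjusted p = 3.85e-05). With any 1 array left out the difference stayed between 0.82 and 0.96.

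Dll1, a Delta ligand that acts in arteries and in the maintenance of splenic B cells, was the one member with a negative difference. The arrays ranged from 5.00 over a median of 5.70 to 6.23 in NICD-OE-HEC and from 5.87 over 6.06 to 6.34 in Control. NICD-OE-HEC 3 and 4 lay far below the other arrays, while NICD-OE-HEC 1 lay near the top of the Control range. The mean was 5.60 ± 0.51 in NICD-OE-HEC and 6.07 ± 0.18 in Control (SD, n = 6 each), a log2 difference of -0.47 (SE 0.19, limma adjusted p = 0.158; exact permutation p = 0.0628). Without NICD-OE-HEC 1 the difference was -0.60 with an adjusted p of 0.0462. The spread within NICD-OE-HEC was thus wider for Dll1 than for any other member, and 1 array decided its call.

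Jag2, the other Jagged ligand, was below the array median on all 12 arrays, so by the cut used here its level cannot be told from background. Its values ran from 2.64 over a median of 3.25 to 3.65 in NICD-OE-HEC and from 2.22 over 2.81 to 3.12 in Control. The groups overlapped through NICD-OE-HEC 3 and 6. The mean was 3.25 ± 0.37 in NICD-OE-HEC and 2.76 ± 0.37 in Control (SD, n = 6 each), a log2 difference of 0.49 (SE 0.19, limma adjusted p = 0.121; exact permutation p = 0.0390). Without NICD-OE-HEC 3 the difference was 0.62 with an adjusted p of 0.0365.

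**Figure D2:**
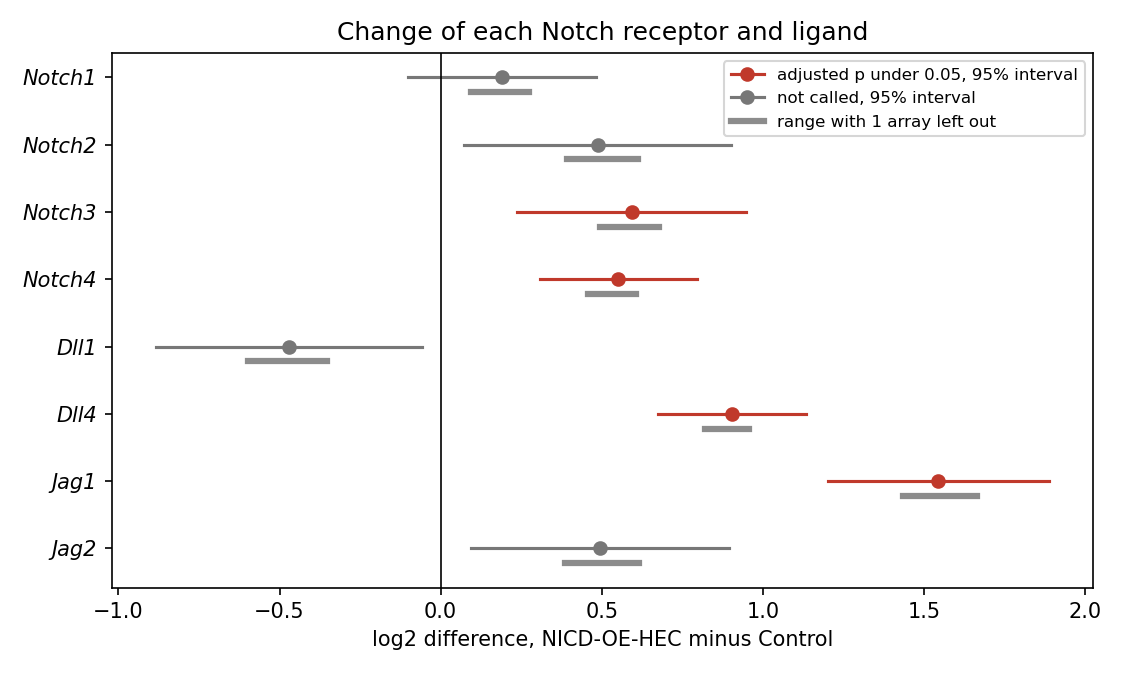
Log2 difference (horizontal axis, NICD-OE-HEC minus Control) of each of the 8 genes (vertical axis), with limma's 95% interval and, as a grey bar beneath it, the range over the 12 fits with 1 array left out. Jag1 (1.54) and Dll4 (0.90) lie farthest from 0, and Dll1 (-0.47) is the one gene below it.

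Whether 2 members changed unequally was tested on their log2 difference within each array, which says nothing of their levels against each other. Exact permutation over the 12 arrays was applied to 6 receptor pairs and 6 ligand pairs, two-sided and adjusted over these 12 pairs, and 5 pairs were called. All of them were ligand pairs, and 2 of the 5 set Dll1 and Jag1 against Jag2. No size is given for those, because Jag2 was below the array median on every array. The log2 change of Dll1 minus that of Jag1 was -2.02, and minus that of Dll4 it was -1.37, each with an exact adjusted p of 0.00866. The Jag1 rise exceeded that of Dll4, which changed by 0.64 less (-0.64, exact adjusted p = 0.0104).

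No receptor pair passed this test by exact permutation, although 1 of the 6 (Notch1 against Notch4) had an unadjusted p under 0.05. Notch1 changed by 0.36 less than Notch4 (-0.36, exact adjusted p = 0.0705), and this passed without NICD-OE-HEC 4 and Control 2 (-0.35, exact adjusted p = 0.0317), without NICD-OE-HEC 1 alone (-0.43, exact adjusted p = 0.0346) and without Control 2 alone (-0.43, exact adjusted p = 0.0303). Notch1 against Notch2 (-0.30, exact adjusted p = 0.143) passed without Control 1 (-0.40, exact adjusted p = 0.0303). Notch2, Notch3 and Notch4 differed from each other by 0.11 or less in their change, with exact adjusted p = 0.835 for each pair. The call of Notch3 and Notch4 beside the missing call of Notch2 is therefore not a shown difference between these receptors.

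The highest and lowest arrays of a group were often the same for several members. NICD-OE-HEC 4 was the lowest array of its group for 5 of the 8 genes (Notch1, Notch2, Dll1, Dll4 and Jag1), and NICD-OE-HEC 1 was the highest for the same 5, tied with NICD-OE-HEC 5 for Dll4. Control 2 was the lowest Control array for 6 (Notch1, Notch2, Notch4, Dll4, Jag1 and Jag2), and Control 5 the highest for 5 (Notch1, Notch4, Dll1, Jag1 and Jag2). Pearson correlations between 2 members over the arrays of a group were positive for 25 of 28 pairs in NICD-OE-HEC (median 0.56) and 23 of 28 in Control (median 0.58). They ranged from -0.32 to 0.972 in NICD-OE-HEC and from -0.74, between Notch2 and Notch3, to 0.880 in Control. No such values were computed for other pairs of genes.

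Over the 56 relations tested, 0 passed adjustment by exact permutation (10 for r and 12 for rho at an unadjusted p under 0.05). The highest r in NICD-OE-HEC was between Dll1 and Dll4, at 0.972 with a Spearman rho of 0.986 (n = 6, exact permutation p = 0.00278 and 0.00556, adjusted p = 0.0778 and 0.104), and r was 0.909 without the 2 arrays farthest from the Dll1 median. In Control the same pair had r = 0.438 and rho = 0.314. Notch3 went with Jag2 at r = 0.932 and rho = 0.943 (n = 6, exact permutation p = 0.00694 and 0.0167, adjusted p = 0.0972 and 0.117), with r at 0.937 without the 2 farthest arrays. Jag2 was below the array median on every array, however, and in Control this pair had r = 0.037 and rho = 0.086. In Control the highest r was between Notch1 and Dll4, at 0.880 with a rho of 0.543 (n = 6, exact permutation p = 0.0431 and 0.297, adjusted p = 0.233 and 0.553). This Control value dropped to 0.371 without the 2 farthest arrays and so rests on them. In NICD-OE-HEC the same pair had r = 0.920 and rho = 0.986 (n = 6, exact permutation p = 0.00278 and 0.00556, adjusted p = 0.0778 and 0.104). There r was 0.882 without the 2 farthest arrays. All genes of an array share its RNA preparation, and the second principal component over all probe sets set apart the same NICD-OE-HEC 4 and Control 2.

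**Figure D3:**
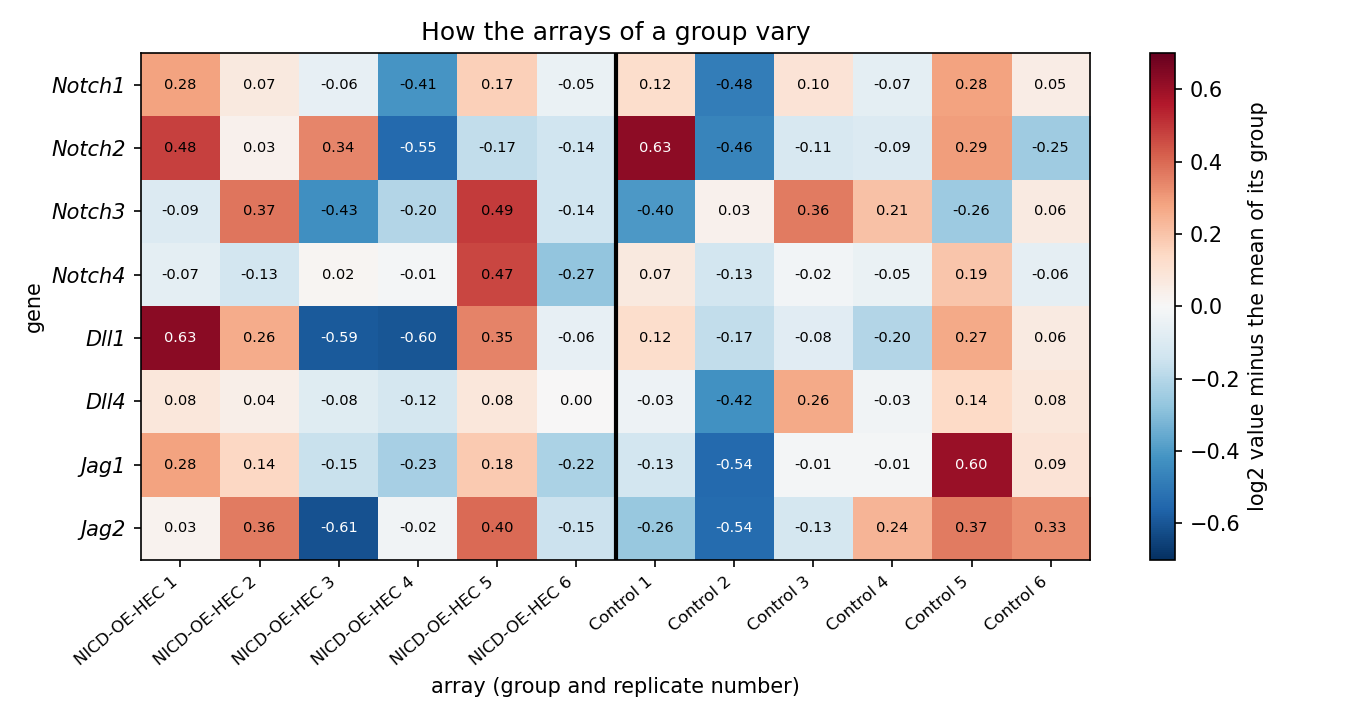
Deviation of each gene (rows) on each array (columns, NICD-OE-HEC left of the line and Control right of it) from the mean of its group, in log2 units, as colour and printed value. The columns of NICD-OE-HEC 4 and Control 2 are mostly below 0, and Dll1 has the widest spread within NICD-OE-HEC, from -0.60 to 0.63.

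The genes with the most similar pattern were sought among 11468 probe sets with a symbol and a mean above the median, by Pearson r over the 12 arrays after the group means were subtracted. These values describe likeness between arrays of a group, and the highest of so many are high by selection. Notch1 was most like Tie1 (0.982), Lmf2 (0.981) and Tspan31 (0.977), the highest likeness of any member. Notch2 was most like Selplg (0.961), Iqgap1 (0.928) and Arap1 (0.926), and Notch4 most like Gadd45g (0.949), Tnip1 (0.935) and Rhbdf2 (0.933). Notch3 had the lowest likeness to its nearest genes, Mrpl37 (0.875), Ddrgk1 (0.862) and Nfu1 (0.848). Among the ligands, Dll4 was nearest to Cyp4f13 (0.938), Stn1 (0.938) and Cdk4 (0.935), and Jag1 to Slc26a10 (0.940), Lgals3bp (0.918) and Ppp1r37 (0.917). Dll1 was nearest to Cnksr3 (0.934), Smim20 (0.926) and Eif4h (0.920), and Jag2 to Traf4 (0.935), Wdr46 (0.904) and Sncg (0.902). Of these 24 genes 2 rose, Iqgap1 (0.73) and Sncg (0.85), and 6 fell, namely Slc26a10 (-1.56), Cnksr3 (-1.24), Lgals3bp (-0.61), Lmf2 (-0.57), Nfu1 (-0.36) and Ddrgk1 (-0.31). The other 16 were not called, among them Tie1 at 0.00. The share called over all probe sets, not the 11468 candidates alone, was 4.89% higher and 5.59% lower.

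The receptors and ligands were set beside 56 other genes of the pathway, of which 9 rose and 8 fell with a median difference of -0.01. Over all probe sets 4.89% were higher and 5.59% lower. Of 6 genes that Notch commonly induces, 4 rose and 0 fell by limma (5 and 0 at an unadjusted p under 0.05). The 4 were the repressors Hey1 (2.70), Hes1 (0.76) and Heyl (0.50) and the feedback inhibitor Nrarp (1.04). Each was higher on average in NICD-OE-HEC than in Control with an adjusted p of 0.0231 or less. Hes5 was below the array median on all arrays, and Hey2 averaged 3.76 in NICD-OE-HEC and 3.48 in Control. Their missing calls therefore do not show that they stayed unchanged. Heyl lost its call without NICD-OE-HEC 2, 4 or 6 or Control 3, 4 or 5, with differences of 0.44 to 0.59 over single arrays left out. The Heyl mean in Control was 3.51, below the array median, so the size of its difference is not exact. Hey1 averaged 7.11 ± 0.23 in NICD-OE-HEC and 4.42 ± 0.38 in Control (SD, n = 6 each). Jag1, at 1.54, thus differed by more than Nrarp and Hes1 and by less than Hey1, a ranking of differences and not of levels.

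Among the enzymes that put sugars on the receptors, 1 gene stood out by size. Lfng, a Fringe enzyme that shifts a receptor's preference from Jagged towards Delta ligands, fell to 6.88 ± 0.27 in NICD-OE-HEC, against 8.25 ± 0.06 in Control (log2 difference -1.37, SE 0.11, limma adjusted p = 1.25e-06). Eogt, which adds O-GlcNAc to EGF repeats, rose by 0.70, and Pofut1, the O-fucosyltransferase on whose product Fringe acts, fell by 0.33. Of the 7 genes measured, 1 rose and 2 fell. The other Fringe genes Mfng and Rfng differed by 0.00 and -0.16 without a call. Pofut1 lost its call without NICD-OE-HEC 4 and Control 2 together (-0.30, adjusted p = 0.0619), and also when NICD-OE-HEC 1 or 3 or Control 5 or 6 was left out (-0.37 to -0.31 over single arrays left out).

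Among the genes that cut the receptors or carry the signal in the nucleus, the called ones were lower. Of 9 genes of receptor cleavage 0 rose and 2 fell (1 and 2 at an unadjusted p under 0.05), both parts of gamma-secretase, Aph1a (-0.35, adjusted p = 0.0436) and Ncstn (-0.31, adjusted p = 0.0338). The protease genes Adam10 and Adam17 differed by 0.00 and 0.08. Of 9 nuclear genes 0 rose and 2 fell (2 and 3 at an unadjusted p under 0.05), namely Kat2b, an acetyltransferase (-0.48, adjusted p = 0.00130), and Rbpj, through which the intracellular domain reaches DNA (-0.46, adjusted p = 0.0415). Rbpj lost its call without NICD-OE-HEC 4 and Control 2 (-0.41, adjusted p = 0.0937). Single arrays decided these smaller calls too. Aph1a lost its call without any 1 array other than NICD-OE-HEC 4 or Control 2 or 5 (-0.40 to -0.30, adjusted p up to 0.108). Ncstn lost it without NICD-OE-HEC 3, 4 or 5 or Control 3, 4, 5 or 6 (-0.35 to -0.26, adjusted p up to 0.0852), and Rbpj without NICD-OE-HEC 3, 4 or 5 or Control 1, 2, 4 or 6 (-0.51 to -0.40, adjusted p up to 0.100).

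Genes of receptor turnover split in direction. Numb, an endocytic inhibitor of Notch, fell to 6.84 ± 0.15 in NICD-OE-HEC, against 7.63 ± 0.12 in Control (log2 difference -0.79, SE 0.09, limma adjusted p = 3.50e-05). The ubiquitin ligase genes Nedd4l (0.61), Dtx3 (0.49) and Nedd4 (0.32) rose, and 7 of the 11 genes were not called. Dtx3 (0.43, adjusted p = 0.0836) and Nedd4 (0.28, adjusted p = 0.0546) lost their calls without NICD-OE-HEC 4 and Control 2. Dtx3 lost it as well without NICD-OE-HEC 3, 4 or 5 or Control 3 or 4 (0.42 to 0.56 over single arrays left out).

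Of 8 further ligands 1 rose and 1 fell. Dlk2, a non-canonical ligand, was higher by 0.39 (adjusted p = 0.0138) at means of 3.74 in NICD-OE-HEC and 3.35 in Control, near or below the array median. Egfl7, a secreted endothelial protein that binds Notch, was lower by 0.36 (-0.36, adjusted p = 0.0349), a call lost without both arrays that stood apart (-0.28, adjusted p = 0.0910) and without any single array other than NICD-OE-HEC 2 or 5 or Control 4 (-0.40 to -0.30). Dll3, the remaining Delta-like gene, was below the array median on all arrays, with a difference of 0.12. Of 6 genes of ligand endocytosis 0 were called by limma (1 higher at an unadjusted p under 0.05), the largest differences being Neurl1b at 0.29 (adjusted p = 0.0699, or 0.0337 without Control 3, where it was 0.34) and Epn2 at -0.13.

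**Figure D4:**
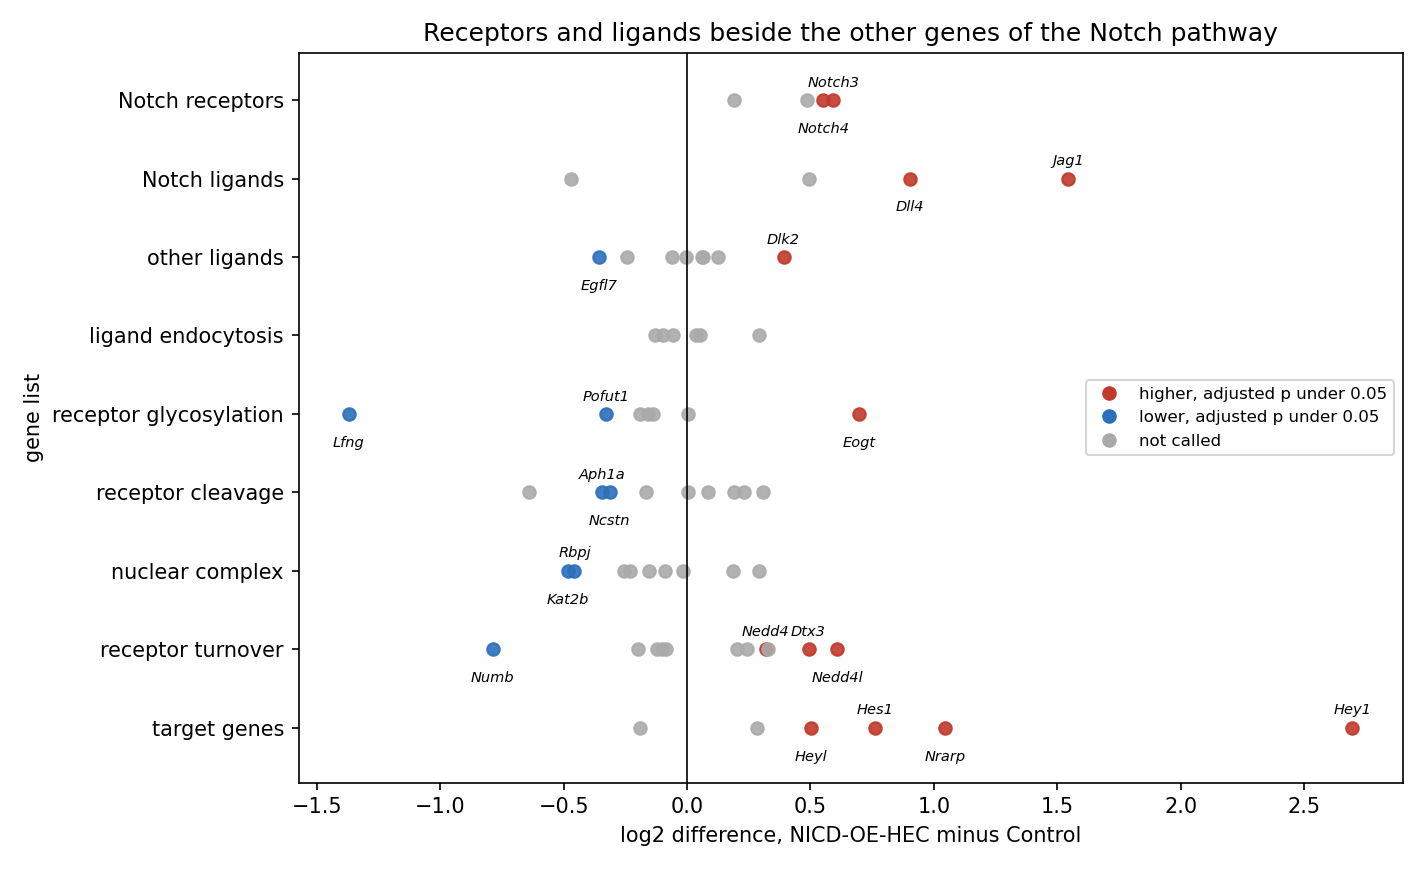
Log2 difference (horizontal axis, NICD-OE-HEC minus Control) of each gene in 9 lists of the Notch pathway (vertical axis). Red points were higher and blue points lower at an adjusted p under 0.05 and are named, and grey points were not called. Hey1 (2.70) and Jag1 (1.54) lie farthest to the right and Lfng (-1.37) farthest to the left.

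Other differences between the groups run alongside all these values. Of 9 early-response genes, which tissue digestion can induce, 8 rose and 0 fell (9 and 0 at an unadjusted p under 0.05), with list means of 7.74 to 9.67 in NICD-OE-HEC and 6.29 to 7.88 in Control. Of 8 neutrophil genes 5 rose and 0 fell (list means 4.62 to 6.62 in NICD-OE-HEC and 3.14 to 4.64 in Control), with Elane below the array median on all arrays. The largest differences of that list were Retnlg (3.13), whose Control mean of 3.38 lay below the array median, and S100a8 (2.93). Of 8 hepatocyte genes 3 rose (list means 6.99 to 8.56 in NICD-OE-HEC and 6.48 to 7.93 in Control). Of 11 stellate cell and fibroblast genes 3 rose and 1 fell (list means 5.21 to 5.62 in NICD-OE-HEC and 4.60 to 5.62 in Control). The 3 were the collagen genes Col1a1 (2.49), Col3a1 (2.11) and Col1a2 (1.71), and the 1 was Lrat (-0.75). The part of these shifts in the differences of the receptors and ligands was not tested. Among genes shared by all endothelium, Cdh5 and Erg differed by 0.01 and 0.03 without a call, while Pecam1 rose by 0.33 and Kdr and Tek fell by 0.60 and 0.59.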

How the data were processed

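Expression was measured in 12 samples, 1 array each. The deposited log2 values were made by the authors with RMA, which corrects background, normalizes quantiles and summarises probe sets, per the submitters' processing notes. Software, chip definition and genome build are not stated in the sources used. Arrays share their quantiles closely (median 3.67), so a shift of most genes one way would not show, and no detection calls were used. Control 1 differed slightly, with a median of 3.674581 against 3.674316 on each other array. The reason is not stated in the sources used. Of 25428 probe sets 24705 had a symbol in the platform annotation.

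NICD-OE-HEC minus Control was fitted over all probe sets with limma 3.58.1 in R 4.3.3 (lmFit, eBayes, no covariates, no filter), with Benjamini-Hochberg adjustment over all of them. An adjusted p under 0.05 is a call. SE is moderated and SD is over 6 arrays. Single values were tested by two-sided exact permutation (Python 3.11.15). The fit was tested on simulated data. The number of arrays limits the precision. Alternatives covered normalization, dim probe sets (25 or 50 percent left out), the variance model, weighted arrays, a block for the replicate number, single arrays left out, 2 arrays left out and a log2 difference of at least 1.

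The members and lists were chosen with earlier results of these data known. Named are the 8 members, up to 4 called genes of each pathway list by size (or the 2 largest differences), and the 3 nearest genes of each member; marker genes and further list genes were named after their values were seen. Of 58 other pathway genes 56 were measured. Promoters come from RefSeq (GRCm38.p6).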

Additional observations from a re-analysis of the deposited data

Results flagged for a closer look

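Among 54 sets of 6 arrays (27 genes in each group), 2 held an array far from the rest, where chance gives about 1 in 20. Numb was 7.12 on NICD-OE-HEC 1, above the 6.70 to 6.85 of the other NICD-OE-HEC arrays. It was 7.40 on Control 2, below the 7.61 to 7.73 of the other Control arrays. All values of Numb in NICD-OE-HEC nevertheless lay below those in Control. No receptor or ligand was set apart by this measure in either group.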

How the results depend on the processing

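Jag1, Dll4 and Notch4 kept their direction and call under every alternative fit. Notch3 kept its call under the other normalizations, filters, variance model and array weights, and lost it with the replicate number as a block (0.59, adjusted p = 0.0801). The arrays share only a number: deviations of same-numbered arrays correlated from -0.10 to 0.22, and 2 of 6 matched their own number best. With the replicate block 3 of the 8 genes were higher and 0 lower, and it changed no other member's call. Among the pathway genes named, Aph1a (-0.35, adjusted p = 0.0969) and Ncstn (-0.31, adjusted p = 0.0897) lost their calls under the block. Under the intensity trend with robust variances Aph1a (adjusted p = 0.0630) and Rbpj (adjusted p = 0.0539) lost theirs, and with array weights Rbpj did (-0.41, adjusted p = 0.0537). Neurl1b gained a call with the dimmest 50 percent left out (0.29, adjusted p = 0.0394). Jag2 had p = 0.0390 by exact permutation alone (0.49). Requiring a log2 difference of at least 1 left 1 of the 8 genes higher, Jag1, and 2 higher and 1 lower of the other pathway genes. At an adjusted p under 0.05 alone, 5 of these were lower without both arrays that stood apart, against 8 with all arrays. Without those arrays Notch1 against Notch4 passed at -0.35. With 1 array left out, the difference ranged from 0.39 to 0.61 for Notch2, 0.50 to 0.68 for Notch3, -0.60 to -0.35 for Dll1 and 0.39 to 0.62 for Jag2. The count of the 8 genes ran from 3 to 5 higher and from 0 to 1 lower, and that of other pathway genes from 7 to 9 higher and from 3 to 7 lower. Over all 25428 probe sets the same fits called 1017 to 1323 higher and 1090 to 1647 lower. The change of Notch1 against that of Notch2 ran from -0.40 to -0.22 and against Notch4 from -0.43 to -0.28. The causes were not tested, beyond the fewer arrays of these fits. Signals near or below the array median (among them Notch3, Jag2, Dlk2, Heyl and Krt19) limit what can be said of their size.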
